A study of Mus musculus with 6 samples.

Results

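Transcripts of 10 circadian clock genes, Arntl, Clock, Per1, Per2, Per3, Cry1, Nr1d1, Nr1d2, Dbp and Tef, were followed in peritoneal macrophages of FOXO3 KO and WT mice. The genes were taken by symbol from the deposited table, which lists 54648 symbols; all 10 were found and all 10 were among the 15608 genes that passed the filter on low counts. RNA-seq was carried out on intraperitoneal cells of C57BL/6 mice, 6 to 8 weeks old, with 3 libraries per genotype (WT 1 to 3 and FOXO3 KO 1 to 3). WT and FOXO3 KO mice were littermates genotyped as homozygous, on a standard chow diet, of both sexes, and all had been injected with thioglycollate, a sterile irritant after which recruited monocytes become macrophages in the abdominal cavity. The hour at which cells were collected is in none of the sources used here, and the phase of the clock in each library is not known. Nothing in the labels says whether a library came from 1 mouse or from several, and the p-values measure only the spread between these libraries.

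The mammalian clock is a feedback loop of transcription that runs in nearly every cell, macrophages included. ARNTL (BMAL1) and CLOCK bind E-box elements and switch on the Per and Cry genes, whose proteins return to the nucleus and repress ARNTL and CLOCK. In a second loop the nuclear receptors NR1D1 and NR1D2 (REV-ERB alpha and beta) repress Arntl. The output factors DBP and TEF, which belong to the PAR bZIP family, activate genes through D-box elements, where NFIL3 represses. In macrophages this clock is known to set daily rhythms in cytokine and chemokine genes.

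Upstream sequences of the clock genes were read from RefSeq (GRCm38.p6), which held windows for 9 of the 10 genes, and for Nfil3; Per2 was not among them. Only the 250 bases before each start were searched, on both strands, for CACGTG (E-box), CACGTT (the variant E-box), TTATGTAA and TTACGTAA (D-box), TAGGTCA and TGGGTCA (the element of the REV-ERB and ROR receptors), TGACGTCA (CRE) and GTAAACA (the FOXO element). No match overlapped another. An E-box of the first kind was present in 6.02% of all 32851 windows in the RefSeq table, the variant in 3.85%, either D-box in 0.931%, either receptor element in 5.38%, the CRE in 1.55% and the FOXO element in 3.17%. The windows printed here are those of Tef, Per3 and Cry1. Tef is, like Dbp, an output gene that was lower in FOXO3 KO, and it has an E-box before each of its 2 RefSeq starts. Per3 has a pair of D-boxes, and Cry1 is the only clock gene of the 9 with the FOXO element. Capitals mark the matches, where AACGTG is the variant E-box read on the other strand, and sequences run 5′ to 3′ on the strand of the gene.
Tef, first start (chr15:81802423-81802672, plus strand): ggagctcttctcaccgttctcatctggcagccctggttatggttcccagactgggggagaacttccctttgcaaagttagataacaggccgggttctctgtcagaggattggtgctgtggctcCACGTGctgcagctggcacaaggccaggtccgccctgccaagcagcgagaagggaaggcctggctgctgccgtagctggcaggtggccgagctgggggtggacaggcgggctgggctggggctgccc
Tef, second start (chr15:81811164-81811413, plus strand): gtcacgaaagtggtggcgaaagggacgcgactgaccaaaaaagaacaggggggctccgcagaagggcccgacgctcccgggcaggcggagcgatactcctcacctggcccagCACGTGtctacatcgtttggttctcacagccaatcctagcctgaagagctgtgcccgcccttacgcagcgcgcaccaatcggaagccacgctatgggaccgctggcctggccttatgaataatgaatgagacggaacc
Per3 (chr4:151044666-151044915, minus strand): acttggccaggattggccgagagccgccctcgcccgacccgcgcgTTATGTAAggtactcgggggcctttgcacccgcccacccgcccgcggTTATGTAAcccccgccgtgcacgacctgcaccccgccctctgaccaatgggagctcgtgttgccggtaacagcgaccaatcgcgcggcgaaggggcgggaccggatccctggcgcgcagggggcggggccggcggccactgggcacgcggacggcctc
Cry1 (chr10:85185055-85185304, minus strand): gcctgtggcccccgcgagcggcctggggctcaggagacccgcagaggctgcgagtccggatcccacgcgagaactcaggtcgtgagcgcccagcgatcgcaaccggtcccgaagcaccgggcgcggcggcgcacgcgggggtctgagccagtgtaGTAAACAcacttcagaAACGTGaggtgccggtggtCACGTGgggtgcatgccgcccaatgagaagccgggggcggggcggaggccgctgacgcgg
The E-boxes of Tef began 127 and 138 bases before their RefSeq starts. In GENCODE M21, the source of the gene positions below, Tef begins at chr15:81802421, so both of its windows lie inside the gene there. In Per3 the D-boxes began at 205 and 158 bases before the start. In Cry1 the FOXO element began at 95, the variant E-box at 79 and the E-box at 60 bases before the start. Per1 had an E-box 166 bases before the first of its 2 starts, and Nr1d1 a variant E-box at 28 bases; the windows of Arntl, Clock, Nr1d2 and Dbp held none of these letters, and that of Nfil3 held a receptor element at 12 bases. A match of letters is a description of sequence and not a measure of binding.

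Before the clock genes were compared, the libraries were checked. Totals were between 28083572 and 36424331 counts. CPM stands for counts scaled to a common library size by TMM, which corrects for differences in composition. Foxo3, the targeted gene, had 117, 107 and 73.1 CPM in the WT libraries and only 4.71 and 4.29 CPM in FOXO3 KO 1 and 3, whereas the library labelled FOXO3 KO 2 held 104 CPM, within the range of WT. Xist, which is transcribed in female cells, was above 1 CPM only in WT 3 (871 CPM) and FOXO3 KO 3 (1130 CPM). Because of Foxo3, the name FOXO3 KO 2 stands for the label of that library only, and values are given with and without it. WT 3 stood apart from the other libraries, with Pearson's r of log2 expression across genes, which are not independent replicates, between 0.917 and 0.951 against 0.980 or more for all other pairs. The 10 macrophage markers (among them Adgre1, Csf1r and Lyz2) summed to between 13200 and 18200 CPM in WT and between 14900 and 16700 CPM in FOXO3 KO. The 8 B cell markers summed to between 345 and 3250 CPM in WT, with the highest value in WT 3, and to between 128 and 647 CPM in FOXO3 KO. The 10 mesothelial and fibroblast markers summed to between 44.7 and 80.4 CPM in WT and to between 102 and 517 CPM in FOXO3 KO, highest in FOXO3 KO 2. Of these, 9 were tested and 8 were apart (no overlap between the groups) and higher in FOXO3 KO, against 7% of all genes tested, while Msln was at 0 in some libraries of both groups. The 10 neutrophil markers summed to between 126 and 195 CPM in WT and to between 193 and 467 CPM in FOXO3 KO. The 193 CPM were those of FOXO3 KO 2, inside the WT range, against 467 and 386 CPM in FOXO3 KO 1 and 3. Of the 7 tested, 4 were apart and higher, against the same 7% of all genes, and Ly6g, Camp and Ngp had at most 7 counts and were at 0 in some libraries. The part of other cell types in the values of the genes described here was not tested, and in these bulk samples fewer cells of a type cannot be told apart from less RNA per cell.

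With both a 1.5-fold change and an adjusted p below 0.05 required, 0 of the 10 clock genes were called in either direction by edgeR's quasi-likelihood test, as were 0% of all genes tested. DESeq2, edgeR's likelihood ratio test and limma-voom also called 0 of the 10, against 166 of 31378, 109 of 15608 and 0 of 15608 genes. The targeted gene Foxo3 was not called by edgeR's quasi-likelihood test either, at a log2 fold change of -1.40 (adjusted p = 0.859). Without FOXO3 KO 2 its log2 fold change was -4.46 (adjusted p = 0.105 in the same test). The study, in its own analysis, listed Foxo3 among its differentially expressed genes, as lower in FOXO3-deficient macrophages. A gene that was not called is thus not shown to be unchanged. At an unadjusted p under 0.05, 2 of the 10 passed, Per1 (higher) and Tef (lower), against 5.68% of all genes tested. With TMM scaling, the 3 FOXO3 KO libraries lay wholly apart from the 3 WT libraries for 3 of the 10 genes, against 12.4% of all genes tested. These were Clock (higher), Dbp and Tef (both lower). With upper-quartile factors or with no scaling factors, Tef overlapped. By direction, 7% of all genes were apart and higher in FOXO3 KO, and 5.36% apart and lower. Without FOXO3 KO 2, 0 of the 10 genes passed at an unadjusted p under 0.05, against 4.3% of all genes (3.05% higher and 1.26% lower). The same 3 genes were apart without this library, where 20.3% of all genes were (11% higher and 9.23% lower), and without WT 3, where 25.3% were. Groups that are apart stay apart when a library is left out, so the count could only rise, and it did not. The median log2 fold change of the 10 genes was -0.08, and that of all genes tested was -0.01.

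**Figure D1:**
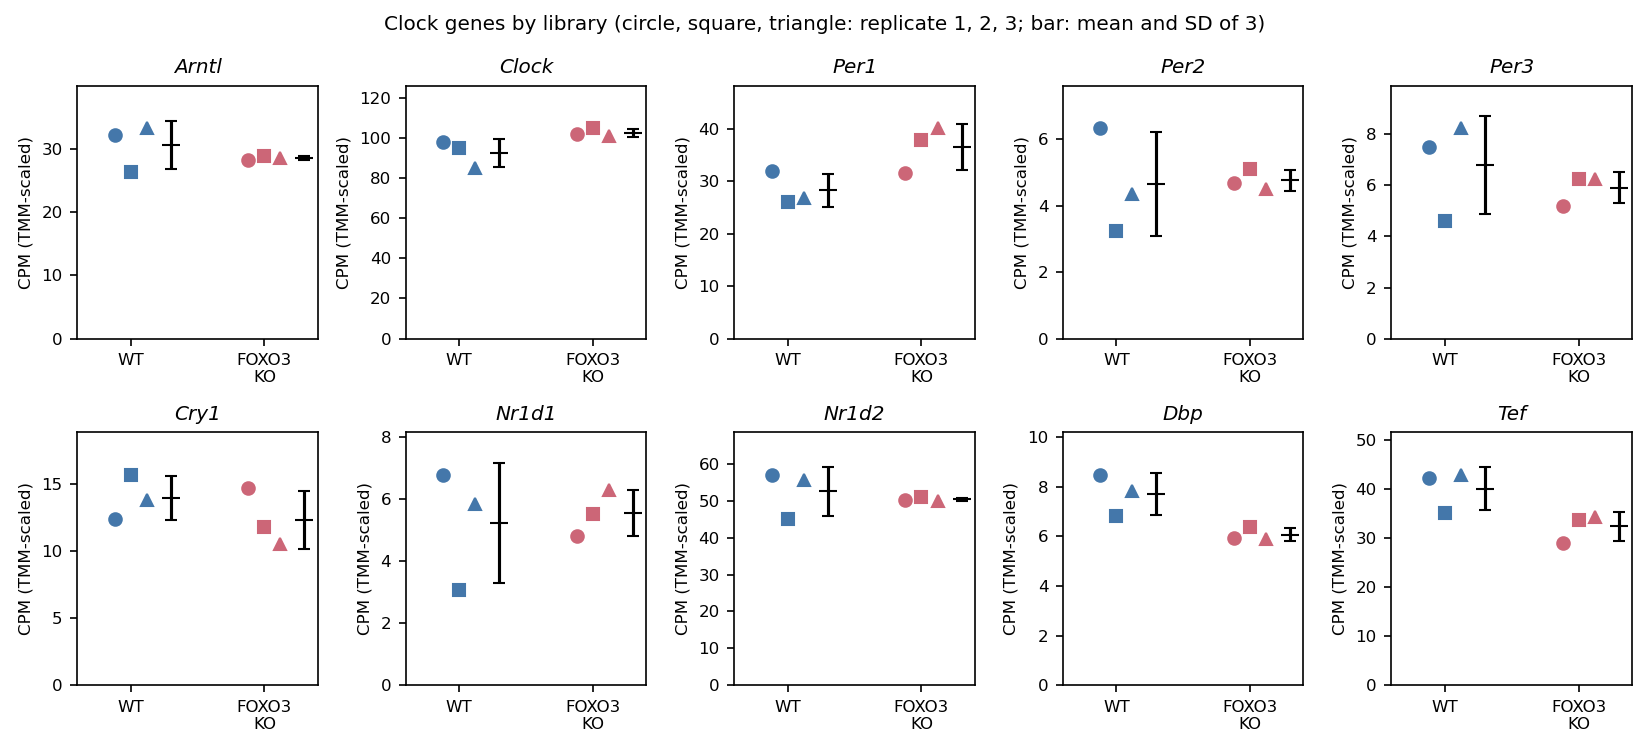
TMM-scaled CPM (vertical axes, each from 0) of the 10 clock genes in the 3 WT (blue) and 3 FOXO3 KO (red) libraries, with the mean and SD of each group as a bar. The red points sit above all blue points for Clock, at 101 to 105 CPM, and below all blue points for Dbp and Tef, while they overlap for the other genes.

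Arntl and Clock encode the partners that drive the loop. Arntl (ENSMUSG00000055116.8, chr7:113207465-113314126 in GRCm38, plus strand) had 32.2, 26.3 and 33.3 CPM in the libraries WT 1, 2 and 3 (in this order throughout), while FOXO3 KO 1, 2 and 3 had 28.3, 28.9 and 28.6 CPM. All FOXO3 KO values fell inside the WT range, and their spread was much the smaller (30.6 ± 3.73 CPM in WT and 28.6 ± 0.312 CPM in FOXO3 KO, SD, n = 3 each). The log2 fold change of Arntl was -0.10 with a 95% interval from -0.38 to 0.19 (edgeR's quasi-likelihood test, adjusted p = 0.882).

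Clock (ENSMUSG00000029238.11, chr5:76209868-76304792, minus strand) stood at 98.2, 95.1 and 84.9 CPM in WT 1 to 3 against 102, 105 and 101 CPM in FOXO3 KO 1 to 3. Each FOXO3 KO library was thus above each WT library, but the gap between WT 1 and FOXO3 KO 3 was narrow. The log2 fold change of Clock was 0.15 with an interval from -0.09 to 0.38 (adjusted p = 0.843 from edgeR), and 0.13 without FOXO3 KO 2. So Arntl and Clock, whose proteins act as a pair, had estimates of opposite sign, and neither passed the test.

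The Per genes and Cry1 encode the repressors of the loop. Per1 (ENSMUSG00000020893.17, chr11:69095217-69109960, plus strand), which also responds within minutes to cAMP and glucocorticoid signals, reached 31.9, 26.0 and 26.8 CPM across the WT libraries, with 31.6, 37.8 and 40.1 CPM across the FOXO3 KO libraries. FOXO3 KO 2 and 3 were above all WT libraries, and FOXO3 KO 1 was just under WT 1. Its log2 fold change of 0.37 had an interval from 0.04 to 0.70 and an unadjusted p of 0.0332, which did not hold after adjustment over all genes (edgeR, adjusted p = 0.839). Without FOXO3 KO 2 the estimate was 0.35, with an interval from -0.09 to 0.78.

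Per2 (ENSMUSG00000055866.9, chr1:91415982-91459324, minus strand) had 6.34, 3.25 and 4.36 CPM in the WT libraries and 4.68, 5.11 and 4.50 CPM in those of FOXO3 KO, from 92 to 229 counts. Its WT libraries spread over 1.95-fold and enclosed all FOXO3 KO values. Per3 (ENSMUSG00000028957.12, chr4:151003652-151044665, minus strand) stood at 7.51, 4.62 and 8.25 CPM in WT 1 to 3 against 5.21, 6.24 and 6.27 CPM in FOXO3 KO 1 to 3. The low WT library was WT 2 for both genes. The log2 fold change was 0.03 (interval from -0.65 to 0.72) for Per2 and -0.20 (interval from -0.83 to 0.43) for Per3, so at this depth and spread a change of 1.5-fold in either direction lies within the interval of Per2, and a fall of that size within that of Per3.

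Cry1 (ENSMUSG00000020038.10, chr10:85131700-85185064, minus strand) reached 12.4, 15.7 and 13.8 CPM across the WT libraries, with 14.7, 11.8 and 10.5 CPM across the FOXO3 KO libraries. It was the only clock gene with its highest value in WT 2, the library in which Arntl, Per1, Per2, Per3, Nr1d1 and Nr1d2 were lowest. Its log2 fold change was -0.17 with an interval from -0.61 to 0.26. The estimates of the 3 Per genes and Cry1 thus had both signs.

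Nr1d1 and Nr1d2 encode the REV-ERB receptors, which repress Arntl. Nr1d1 (ENSMUSG00000020889.11, chr11:98767932-98775333, minus strand) had 6.79, 3.07 and 5.84 CPM in the WT libraries and 4.82, 5.51 and 6.30 CPM in those of FOXO3 KO, and it had the widest spread of the 10 genes, 2.21-fold within WT. The FOXO3 KO values all lay between those of WT 2 and WT 1. For Nr1d1 the log2 fold change was 0.08, with an interval from -0.71 to 0.87. Exons of Thra on the opposite strand share 263 bases with it (8.55% of the exon bases of Nr1d1), and without a stated strand setting reads of this stretch cannot be told apart; Thra was between 12.6 and 19.8 CPM in the 6 libraries.

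Nr1d2 (ENSMUSG00000021775.11, chr14:18204054-18239127, minus strand) stood at 57.2, 45.0 and 55.7 CPM in WT 1 to 3 against 50.4, 51.0 and 50.1 CPM in FOXO3 KO 1 to 3. The FOXO3 KO libraries again fell inside the WT range and differed from each other by no more than 1.02-fold. For Nr1d2 the log2 fold change was -0.06 with an interval from -0.34 to 0.22, which leaves out a change of 1.5-fold in either direction.

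Dbp and Tef are the output genes. Dbp (ENSMUSG00000059824.12, chr7:45705088-45710203, plus strand) reached 8.50, 6.81 and 7.83 CPM across the WT libraries, with 5.92, 6.39 and 5.91 CPM across the FOXO3 KO libraries, from 167 to 307 counts. Every FOXO3 KO library was below every WT library, FOXO3 KO 2 included. Mean expression was 7.71 ± 0.852 CPM in WT and 6.07 ± 0.274 CPM in FOXO3 KO (SD, n = 3 each), a log2 fold change of -0.35 with an interval from -0.75 to 0.06 (edgeR's quasi-likelihood test, adjusted p = 0.839). Without FOXO3 KO 2 it was -0.38. Exons of Sphk2 on the opposite strand cover 539 bases, or 18.0%, of the exon bases of Dbp; Sphk2 was between 48.3 and 88.0 CPM, with a log2 fold change of 0.03, and its groups overlapped.

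Tef (ENSMUSG00000022389.15, chr15:81802421-81826863, plus strand) had 42.2, 35.0 and 42.9 CPM in the WT libraries and 29.0, 33.7 and 34.3 CPM in those of FOXO3 KO. The groups did not overlap, though FOXO3 KO 3 and WT 2 were close, and with upper-quartile factors or with no scaling factors they did overlap. The log2 fold change of Tef was -0.31 with an interval from -0.61 to -0.01 and an unadjusted p of 0.0452 (adjusted p = 0.839 from edgeR), and without FOXO3 KO 2 it was -0.34 with an interval from -0.73 to 0.05. Dbp and Tef thus lay lower in FOXO3 KO by similar amounts, and neither passed the test over all genes.

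**Figure D2:**
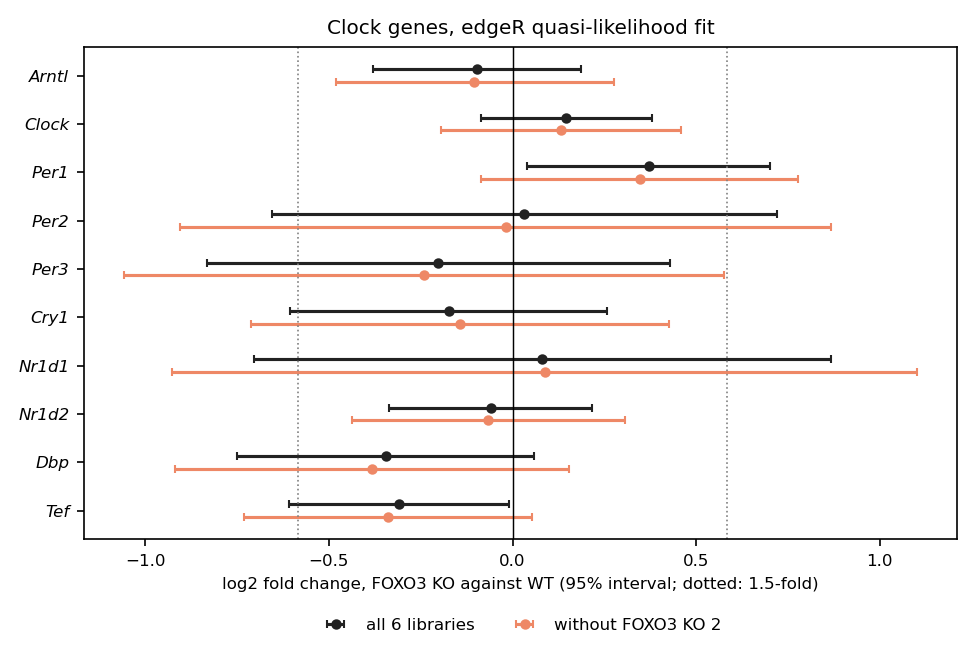
Log2 fold change of the 10 clock genes, FOXO3 KO against WT, with 95% intervals from edgeR's quasi-likelihood fit over all 6 libraries (black) and without FOXO3 KO 2 (orange); dotted lines mark a 1.5-fold change. Over all 6 libraries the intervals of Per1 and Tef leave out 0, and without FOXO3 KO 2 all 10 intervals include it.

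For 8 of the 10 clock genes, all but Per1 and Cry1, the spread was wider between WT libraries than between FOXO3 KO libraries. WT 2 was the lowest WT library for 8 of the 10 genes, all but Clock and Cry1, whereas it was the lowest WT library for 36.1% of all genes tested. On the log2 scale, Nr1d1 in WT 2 lay 0.76 below its mean over the 6 libraries (a deviation of -0.76), Per2 deviated by -0.50 and Per3 by -0.42, while Cry1 deviated by 0.27. In WT 1 the deviations were 0.37 for Nr1d1, 0.45 for Per2 and 0.27 for Per3. Within WT the ratio of the highest to the lowest library was between 1.16 for Clock and 2.21 for Nr1d1, against a median of 1.54 for all genes tested. Within FOXO3 KO it was between 1.02 for Arntl and Nr1d2 and 1.40 for Cry1, against a median of 1.23 for all genes tested. The median over all genes was thus also lower in FOXO3 KO.

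Arntl, which peaks opposite to Per and Nr1d1 transcripts in a running clock, had a positive correlation with Per2, Per3, Nr1d1 and Nr1d2 over these libraries, but not with Per1 (r = -0.10). Over the 6 libraries, as a description, Pearson's r of log2 CPM was 0.959 for Arntl with Nr1d2, 0.965 for Arntl with Per3, 0.75 for Arntl with Nr1d1 and 0.91 for Dbp with Tef, while Cry1 had -0.76 with Nr1d1 and -0.87 with Per1. These values rest on 6 libraries that share the low WT 2, and every gene of a library shares its depth and scaling. Among all genes tested, those most like Dbp over the 6 libraries were Ccdc84, Gm15513, Zzz3, Ilkap and Gm26684 (r between 0.976 and 0.990), and those most opposite were Gtf2e2, Gm21762, Wdr54, Slfn5 and Trip6 (r between -0.990 and -0.972). For Arntl they were Srsf5, Gm17249, Coro2b, Smarcal1 and Mybl1 (r between 0.976 and 0.985), and, among the most opposite, Got2, AU040320, Spata33 and Kpna4 (r between -0.997 and -0.983). No clock gene was among them.

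**Figure D3:**
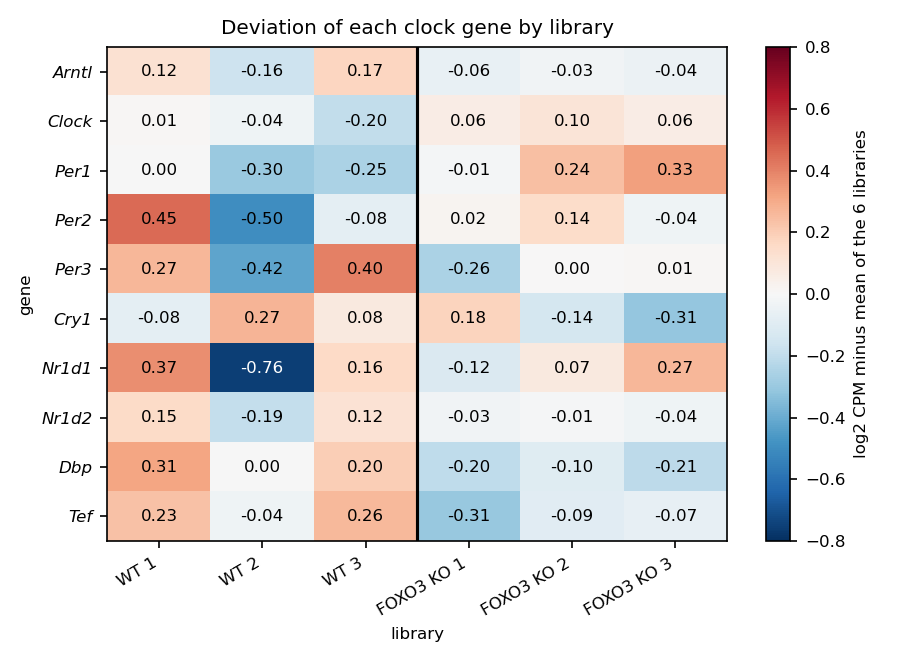
Deviation of log2 CPM from the mean of the 6 libraries for each clock gene (rows) in each library (columns), red above and blue below. The WT 2 column is below 0 for every gene but Cry1, with Nr1d1 at -0.76, and the 3 FOXO3 KO columns are below 0 for Arntl, Nr1d2, Dbp and Tef.

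Levels of different genes were compared per length, as CPM per kilobase of the longest transcript in GENCODE M21. Nr1d2 was highest, at 11.1 ± 0.939 CPM per kb (SD over 6 libraries), followed by Clock, with libraries between 8.71 and 10.8, Tef at 8.22 ± 1.22, Arntl at 7.41 ± 0.658 and Per1 at 6.93 ± 1.22. Among these 5, each gene overlapped with its neighbour in the range over libraries. Cry1 at 4.35 ± 0.640 and Dbp at 3.75 ± 0.578 CPM per kb lay below all libraries of Per1 and overlapped with each other. Nr1d1 at 1.98 ± 0.485, Per3 at 1.06 ± 0.227 and Per2 at 0.807 ± 0.173 CPM per kb were lowest, below all libraries of Dbp, and each overlapped with its neighbour. In every library the level per length was higher for Nr1d2 than for Nr1d1, and higher for Per1 than for Per2 and Per3. With the median length of the coding transcripts in place of the longest, Tef (15.9 CPM per kb) came before Clock (13.1) and Cry1 (8.21) before Per1 (7.13), so the order within these pairs depends on the length used.

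**Figure D4:**
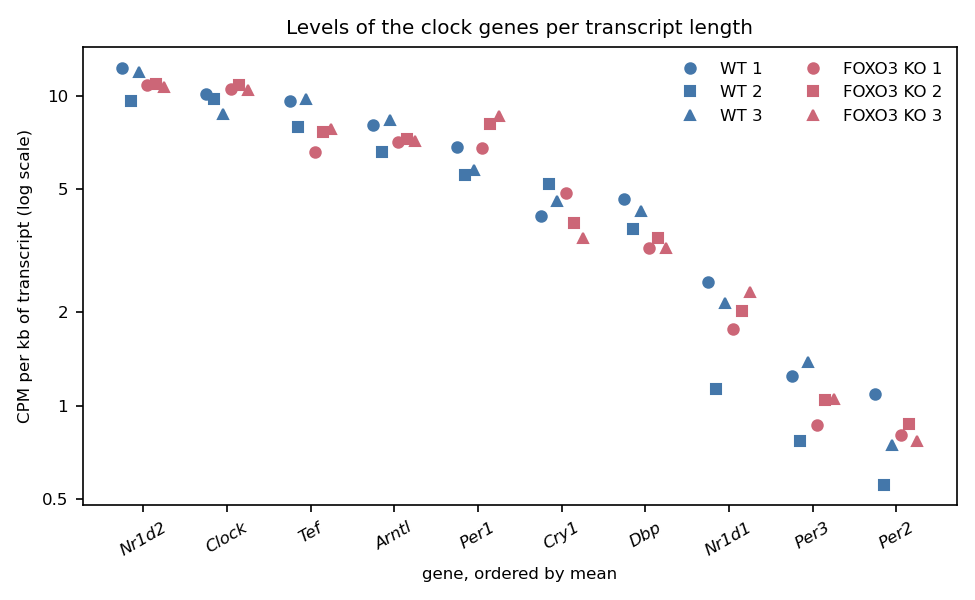
CPM per kilobase of transcript (log axis) of the 10 clock genes in each library (blue WT, red FOXO3 KO), ordered by the mean over 6 libraries. The genes run from Nr1d2 at 11.1 to Per2 at 0.807 CPM per kb, with gaps between Per1 and Cry1 and between Dbp and Nr1d1 that no library crosses.

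The other genes of the clock were taken as a list of 27, of which 25 were tested. At an adjusted p under 0.05, 0 of the 25 were called, and at an unadjusted p under 0.05, 2 were higher (Usp2 and Nfil3) and 0 lower, against 4.04% and 1.65% of all genes tested. The groups lay apart for 4 genes, all higher in FOXO3 KO (Usp2, Nfil3, Gsk3b and Wee1), against 7% of all genes tested that were apart in this direction. The median log2 fold change of the 25 genes was 0.09. The list was chosen with earlier results of these data known, and the study had listed Nfil3 as higher. Its shares are thus a description only.

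Nfil3, the repressor that competes with DBP and TEF for D-boxes, stood at 17.8, 21.8 and 21.4 CPM in WT 1 to 3 against 36.3, 25.9 and 36.7 CPM in FOXO3 KO 1 to 3. All FOXO3 KO libraries were above all WT libraries, and FOXO3 KO 2 was the closest to WT. Nfil3 had a log2 fold change of 0.70 (standard error, SE, 0.17, unadjusted p = 0.00618, adjusted p = 0.714 in edgeR), and 0.84 without FOXO3 KO 2. Hlf, the other PAR bZIP gene, had between 1 and 9 counts in a library and was not tested. At this low level it was higher in FOXO3 KO, with 0.177, 0.255 and 0.270 CPM against 0.0277, 0.106 and 0.140 CPM in WT. With TMM scaling, Dbp and Tef were thus lower and their competitor Nfil3 higher in each FOXO3 KO library, while Hlf was not lower. The ratio of Dbp to Nfil3 CPM was 0.477, 0.312 and 0.366 in WT and 0.163, 0.247 and 0.161 in FOXO3 KO, and the ratio of Tef to Nfil3 was 2.37, 1.60 and 2.01 in WT and 0.799, 1.30 and 0.934 in FOXO3 KO. Neither ratio overlapped between the groups, which follows from Dbp and Tef being lower and Nfil3 higher in each FOXO3 KO library. The genes were put together after their values were seen, and no test was made of the ratios.

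Usp2, a deubiquitinase that acts on clock proteins, reached 0.637, 0.741 and 0.531 CPM across the WT libraries, with 1.52, 1.28 and 2.55 CPM across the FOXO3 KO libraries, from 19 to 85 counts. Its log2 fold change was 1.49 (SE 0.36, edgeR adjusted p = 0.714). Of the protein kinases that mark PER for decay, Csnk1d had a log2 fold change of 0.05 and Csnk1e of -0.16. Gsk3b, another kinase that acts on clock proteins, had 113, 104 and 83.3 CPM in the WT libraries and 130, 117 and 115 CPM in those of FOXO3 KO (log2 fold change 0.27, SE 0.14). Of the ubiquitin ligases of PER, Btrc had -0.29 and Fbxw11 0.13. Wee1, a kinase of the cell cycle under clock control, had 0.34, and the output genes Nampt and Por had 0.27 and 0.21.

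Among the other transcription factors of the clock, 9 of 10 were tested. Of these, 0 passed at an unadjusted p under 0.05, against 5.68% of all genes tested. WT 3 lay far from the other libraries for several of them. Rora, which activates Arntl where the REV-ERB receptors repress it, stood at 37.1, 36.9 and 14.8 CPM in WT 1 to 3 against 34.4, 41.8 and 30.6 CPM in FOXO3 KO 1 to 3. Npas2, a stand-in for Clock, was 2.74, 2.58 and 0.447 CPM in WT and between 1.68 and 2.37 CPM in FOXO3 KO. Cry2 was 5.10, 4.69 and 9.45 CPM in WT and between 4.09 and 5.03 CPM in FOXO3 KO. Bhlhe40 (DEC1), a repressor at E-boxes, was 261, 226 and 130 CPM in WT and between 201 and 283 CPM in FOXO3 KO. Without WT 3 the levels of Rora, Cry2 and Bhlhe40 overlapped between the groups, and Npas2 was lower in each FOXO3 KO library than in WT 1 and 2. The 4 cofactors, Ncor1 and Hdac3 of the REV-ERB complex and the coactivators Crebbp and Ep300, had log2 fold changes between -0.16 and 0.12.

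Of 3 macrophage genes known to be repressed by the REV-ERB receptors, 0 were called by edgeR's quasi-likelihood test, and 2 were higher at an unadjusted p under 0.05, against 4.04% of all genes tested. Ccl2, the chemokine that recruits monocytes, reached 6.09, 9.49 and 4.75 CPM across the WT libraries, with 25.9, 15.0 and 19.3 CPM across the FOXO3 KO libraries, a log2 fold change of 1.57 (SE 0.32, edgeR adjusted p = 0.714). DESeq2 and the likelihood ratio test gave adjusted p of 0.00491 and 0.0103 for Ccl2. Cx3cr1, the fractalkine receptor, had 28.2, 29.5 and 11.7 CPM in the WT libraries and 45.6, 41.2 and 57.8 CPM in those of FOXO3 KO, with the log2 fold change at 1.06 (SE 0.36, edgeR adjusted p = 0.788). Mmp9, a secreted gelatinase, had 40.7, 29.9 and 11.2 CPM in the WT libraries, a range that held the 36.1 to 39.0 CPM of the FOXO3 KO libraries. Ccl2 and Cx3cr1 were apart and higher, against 7% of all genes tested. These 3 genes were also chosen with earlier results of these data known, and the study had listed Ccl2 as higher. The shares are thus a description only. Nr1d1 and Nr1d2 themselves had log2 fold changes of 0.08 and -0.06, with the intervals given above. The part of the REV-ERB receptors in the levels of Ccl2 and Cx3cr1 was not tested.

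**Figure D5:**
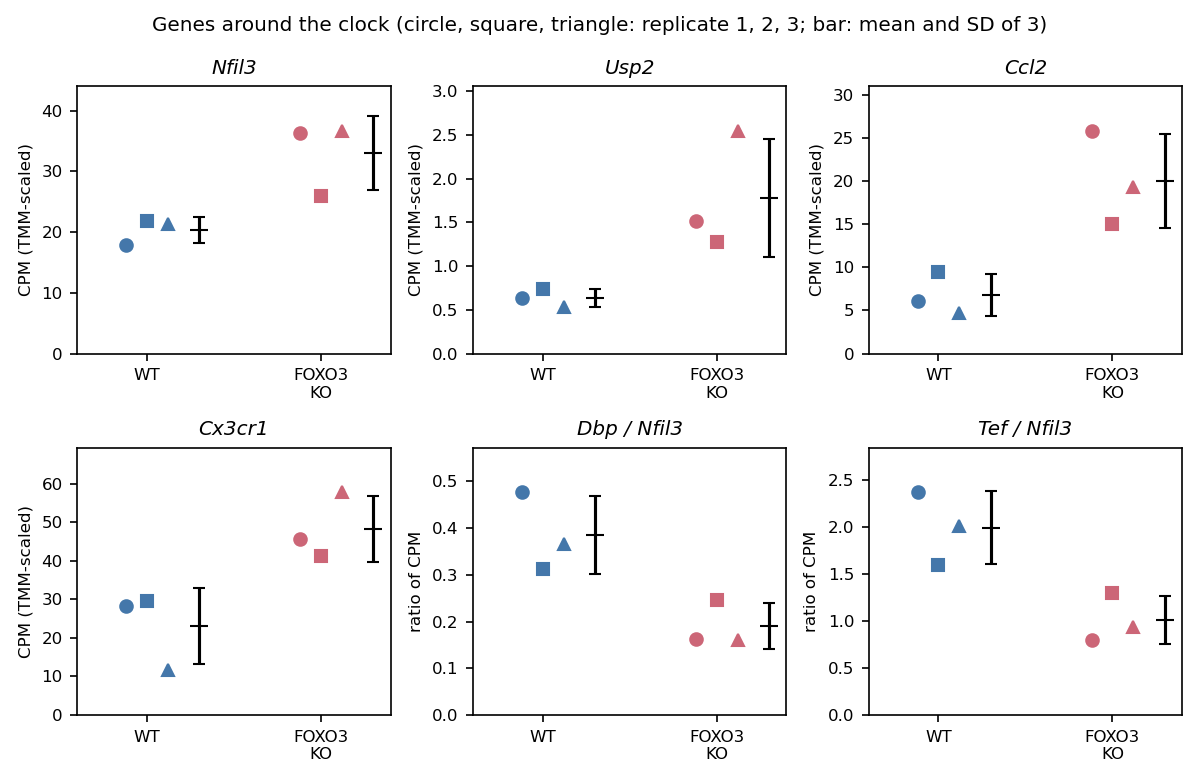
TMM-scaled CPM of Nfil3, Usp2, Ccl2 and Cx3cr1, and the ratios of Dbp and Tef to Nfil3 CPM, in the 3 WT (blue) and 3 FOXO3 KO (red) libraries, with the mean and SD as a bar. Red points are all above blue points for the 4 genes, and all below them for both ratios.

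Because Per1 answers to other signals as well, genes that share them were read beside it. Of 6 genes of the glucocorticoid response, 0 passed at an unadjusted p under 0.05; Fkbp5 had a log2 fold change of 0.06, Klf9 of 0.30 and Tsc22d3 (GILZ) of -0.44. Of 9 immediate early genes, 0 passed, against 5.68% of all genes tested, and all 9 estimates were above 0, against 48.8% of all genes, with a median of 0.22. Their summed level stood at 1030, 1080 and 430 CPM in WT 1 to 3 against 1140, 1030 and 820 CPM in FOXO3 KO 1 to 3. The sum was lowest in WT 3 and highest in FOXO3 KO 1, and WT 1 and 2 lay within the range of FOXO3 KO. Taken singly, each of these genes but Fosb and Egr1 was lowest in WT 3. For Atf3, WT 1 to 3 had 326, 378 and 96.3 CPM, and FOXO3 KO 1 to 3 had 344, 344 and 241 CPM. The part of WT 3 in the shared sign was not tested, and estimates of these 9 genes without that library are not given here. The part of these signals in the level of Per1 was not tested.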

How the data were processed

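RNA from peritoneal cells of WT and FOXO3 KO mice, in 3 libraries per genotype, was sequenced as paired 76 bp reads. Estimated counts per gene symbol, not normalized, were deposited, and 81.4% of them were whole to within 0.01. The submitters' processing notes name STAR 2.6.1d, kallisto 0.46.0, DESeq2 and mm10, with no role given; no source used here gives the annotation or the strand setting. Reads of overlapping genes and of shared transcripts depend on how the authors' counting split them.

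Estimated counts were rounded. Genes were filtered with filterByExpr, scaled by TMM (factors between 0.936 and 1.10) and compared with edgeR 4.0.16 in R 4.3.3 (glmQLFit, glmQLFTest), with Benjamini-Hochberg adjustment over 15608 genes. A gene was called at a fold change over 1.5, as in the study, and an adjusted p under 0.05. Standard errors were obtained by dividing the absolute log2 fold change by the root of F, and 95% intervals used the degrees of freedom of the fit. CPM used the TMM-scaled library size, and log2 CPM used a prior count of 2. Gene positions and lengths came from GENCODE M21 (GRCm38, the build of mm10), and upstream sequences from RefSeq (GRCm38.p6).

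The clock genes and the lists were chosen with earlier results of these data known. Named genes were the 10 clock genes, the listed genes of the clock and of signals shared with Per1, Foxo3, and the 5 genes most and least like Dbp and Arntl; Sphk2 and Thra were added after their overlap was seen. Some genes under this rule are not reported here. Alternatives were DESeq2 1.42.0, limma-voom 3.58.1, the likelihood ratio test, other scaling factors, other filters and thresholds, a block for the replicate number, each of the libraries left out in turn, and a covariate for the side of the libraries by Xist (over or under 1 CPM). The counts of clock genes with groups apart without FOXO3 KO 2 or WT 3 were added after the values were seen. The tests were checked on simulated counts with changes larger than those estimated for the clock genes. The check therefore does not cover changes as small as these. Summed marker levels of 9 cell types were computed: those not given with the results were 30.7 to 141 CPM in WT and 20.9 to 52.0 CPM in FOXO3 KO for T cells, 127 to 780 and 99.9 to 293 CPM for mast cells, 46.3 to 171 and 55.4 to 99.3 CPM for dendritic cells, 9.63 to 27.0 and 9.23 to 182 CPM for red blood cells, and 12.7 to 55.4 and 32.7 to 77.3 CPM for eosinophils. The red blood cell sum was 9.23 CPM in FOXO3 KO 2, against 117 and 182 CPM in FOXO3 KO 1 and 3.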

Additional observations from a re-analysis of the deposited data

How the results depend on the processing

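The directions of 8 of the 10 clock genes held under all 16 alternatives run for each, several of which refit the same counts. For some of the 8 the estimate came close to 0. With a library left out it reached -0.002 for Nr1d2, -0.02 for Arntl and -0.03 for Per3. Leave-one-out values of Per2 ranged from -0.17 to 0.32 and those of Nr1d1 from -0.19 to 0.30 (log2), so both changed sign: Per2 was -0.17 without WT 2, -0.01 without WT 3 and -0.02 without FOXO3 KO 2, and Nr1d1 was -0.19 without WT 2 and -0.02 without FOXO3 KO 3. With CPM of the plain library total, the ratio of FOXO3 KO to WT means of Per2 was 1. No clock gene was called under any setting, and the lowest adjusted p of any of them was 0.467, for Tef with the covariate for the side of the libraries by Xist. Among all genes, 109 were called by the likelihood ratio test, 166 by DESeq2 and 0 by limma-voom, against 0 by the quasi-likelihood test, where 668 had an unadjusted p under 0.05 with a fold change over 1.5. Of the other genes of the clock, 2 passed at that unadjusted threshold. The cause was not tested. Ccl2 was called by the likelihood ratio test and by DESeq2, as given with its levels.

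The replicate numbers are shared between the groups, but deviations from the group means correlated by 0.256, -0.072 and 0.524 for numbers 1, 2 and 3, and 3 of the 6 libraries correlated best with their own number, so the numbers were not taken as pairs. With the replicate number as a block, 0 genes were called, the lowest adjusted p was 0.622, and 0 clock genes and 0 of the other genes of the clock were called. Among the 10 clock genes, the lowest counts were those of Nr1d1 and Per2, which had as few as 87 and 92 counts in WT 2.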
